A study of Mus musculus with 4 samples.

Results

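The cells described here were taken from live CD45+ leukocytes of CT2a gliomas by a gate on homeostatic microglial genes. A barcode was kept with at least 500 detected genes and under 10% of its UMIs (unique molecular identifiers, the counted RNA molecules) from mt- genes. It entered the gate with at least 3 raw UMIs summed over P2ry12, Tmem119, Crybb1 and Sall1 and with 0 UMIs of Cd3e and Cd79a. The gate held 2672 of the 13960 barcodes of the series, and 12866 barcodes lay within the quality limits. Of the gated cells, 1782 came from WT and 890 from CaMKK2 KO mice. These cells were chosen by the measured values of the 4 gate genes, so the levels of those genes are given as a description with no test.

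The tumors grew in female C57Bl/6 mice of 8 to 12 weeks of age, and the tumor-bearing hemispheres were taken on D14 after intracranial implantation of CT2a, a mouse glioma line. WT hosts were compared with hosts that lack CaMKK2 in the germline (CaMKK2 KO), so the deletion was in every host cell and not in microglia alone. Hashtag antibodies, 4 per genotype, marked the mice of each genotype, which gives 4 WT and 4 CaMKK2 KO mice, here WT1 to WT4 and KO1 to KO4. The mice of a genotype were pooled and loaded on 1 channel of the 10X platform, so genotype and channel cannot be told apart. The study bought C57Bl/6 mice and was given the CaMKK2 KO line, which it describes as of C57Bl/6 background. It does not say whether the WT hosts were littermates, so differences between mouse lines may go with genotype and were not tested. The comparison asks how the loss of CaMKK2, a calcium- and calmodulin-dependent kinase upstream of AMPK, goes along with the state of these cells in the tumor.

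Microglia are the resident macrophages of the brain. They arise from the yolk sac, renew themselves in place and depend on signals through the CSF1 receptor and TGF-beta. At rest they express the purinergic receptor P2ry12, the membrane protein Tmem119 and the transcription factor Sall1. In disease they can lose part of this program and gain lipid-handling and lysosomal genes such as Apoe, a state known as disease-associated microglia (DAM). Interferon gamma can make them express MHC class II, which presents peptides to CD4+ T cells. Monocytes that enter a glioma can take on some microglial genes, which makes the lineages hard to separate by few transcripts.

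A gated cell held a median of 18469 ± 1083 UMIs in WT and 17788 ± 3177 in CaMKK2 KO mice (mean ± SD of the mouse medians, n = 4 each). The difference was within the spread between mice (two-sided exact permutation test, p = 0.886). KO4 was the shallowest, with a median of 13102 UMIs and 104 gated cells, and without it the CaMKK2 KO mean lay above the WT mean. The UMIs summed over the gated cells of a mouse ranged from 1633316 in KO4 to 14571536 in WT1. Between the libraries 42 barcodes were shared, among them those of 13 gated WT and 4 gated CaMKK2 KO cells. From the hashtags, HTODemux called 265 WT and 102 CaMKK2 KO gated cells doublets. These were kept, and the values without them are given with the other alternatives.

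The label of the gate was checked against microglial markers that it did not use, and their levels depended on the gate count of the cells. Cells with 3 to 9 gate UMIs made up 65.04% of the WT and 69.89% of the CaMKK2 KO gated cells. At 3 to 4 gate UMIs, Sparc, a secreted matrix protein typical of microglia, stood at 17.0 CPM (UMIs of the gene per 1000000 UMIs of the cells summed) in WT and 21.6 CPM in the CaMKK2 KO mice. At 5 to 9 it stood at 76.2 and 65.3 CPM, and at 20 or more at 1505 and 1498 CPM. Macrophage-gated cells, which hold 3 or more UMIs of Mertk, Adgre1 and Fcgr1 and none of the gate genes, had 5.87 and 3.27 CPM. Gpr34, a lysophosphatidylserine receptor, went along the same steps from 12.4 over 29.9 to 311 CPM in WT mice and from 12.9 over 24.4 to 366 CPM in CaMKK2 KO mice.

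Genes of infiltrating monocytes and macrophages went the other way. Tgfbi stood at 1978 CPM in WT mice and 2370 CPM in CaMKK2 KO cells with 3 to 4 gate UMIs, and at 743 and 761 CPM in cells with 20 or more. The intermediate filament gene Vim stood at 1045 and 1355 CPM in the lower step and at 392 and 420 CPM in the upper. Cells just outside the gate, with 2 gate UMIs, had 17.0 CPM of Sparc in WT and 17.6 CPM in the CaMKK2 KO mice, and cells just inside it, with 3, had 15.8 and 21.1 CPM. The cells are therefore called gated cells here, and no cell type name is given to them as a whole. The microglial markers were highest in the 249 WT and 155 CaMKK2 KO cells with 20 or more gate UMIs, and levels in these cells are given beside the main values. This bound of 20 was chosen after the values had been seen, whereas a bound of 10 had been set earlier.

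**Figure D1:**
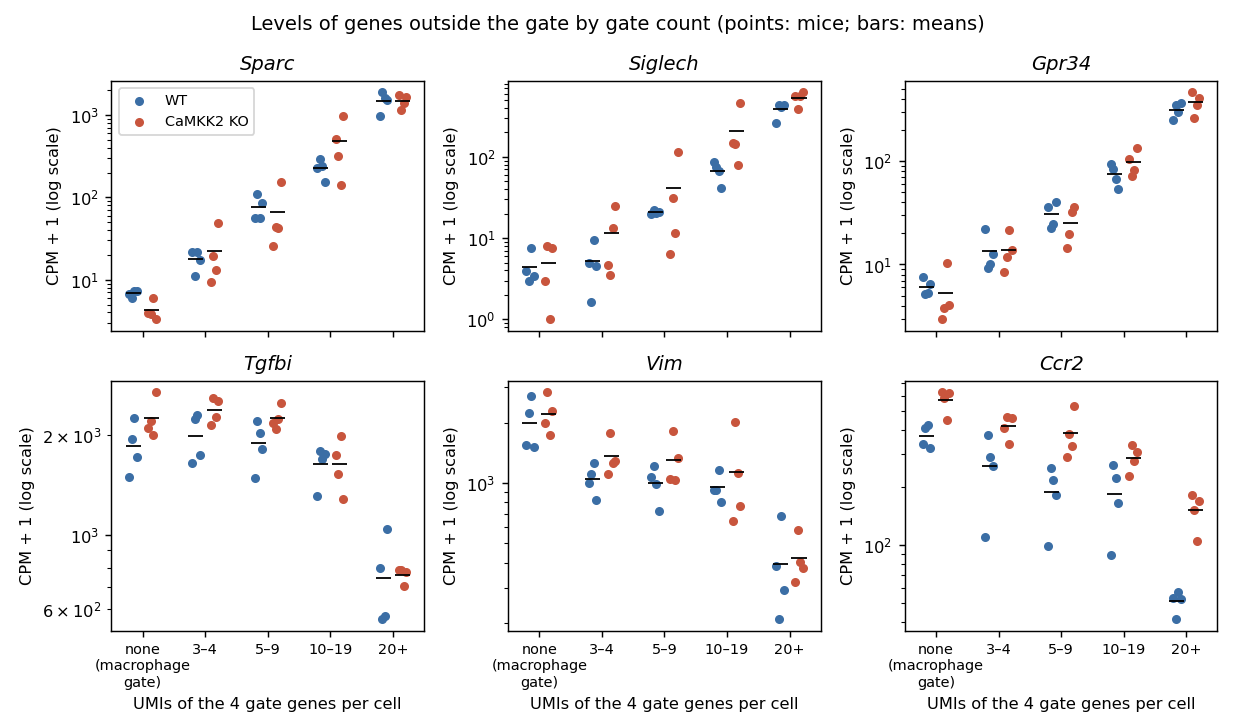
Levels of 6 genes outside the gate (CPM + 1, log scale) against the UMIs of the 4 gate genes per cell, with macrophage-gated cells, which hold none, on the left. Points are mice and bars are means of 4 mice; from 5 gate UMIs on Sparc, Siglech and Gpr34 climb with the gate count in both genotypes, while Tgfbi, Vim and Ccr2 are lowest at 20 or more.

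Apart from mt- and ribosomal protein genes, the transcripts of highest mean level over the 8 mice were Tmsb4x with 15516 CPM, Apoe, Fth1, Cd74, Malat1, Actb, Lyz2, C1qb, C1qa and H2-Ab1. Tmsb4x, an actin-binding peptide, was at 15253 ± 716 CPM in WT mice and 15778 ± 815 CPM in mice of the CaMKK2 KO group. Apoe, Cd74 and H2-Ab1 are taken up with their gene groups. C1qa and C1qb, which encode chains of the complement starter C1q, reached 6319 ± 411 and 6432 ± 432 CPM in WT mice. In macrophage-gated cells these stood at 1945 and 2341 CPM.

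Outside the gate genes, Sparc had the highest ratio to macrophage-gated cells, at 23.7 with 10 CPM added to both. The lectin Siglech followed at 8.78, the cytotoxic granzyme Gzmf at 8.36, the Fc receptor-like Fcrls at 7.07, the tetraspanin Cd81 at 6.77, the secreted Olfml3 at 6.56 and Gpr34 at 6.41. The transporter Slco2b1, the complement component C4b and the cyclooxygenase Ptgs1 completed the 10 highest, at 5.53, 5.14 and 4.77. In cells with 20 or more gate UMIs the ratios of the microglial genes were higher, 104 for Sparc, 34.2 for Siglech and 23.7 for Gpr34. That of Gzmf was 0.774 there. Gzmf, which cytotoxic lymphocytes express, lay at 1047 CPM in KO3 and between 2.81 and 19.2 CPM in the other 7 mice. These ratios describe what the gate collected and were not tested.

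Gated cells made up 49.5% of the cells of WT1, 25.3% of WT2, 19.4% of WT3 and 22.8% of WT4. They made up 15.5% of the cells of KO1, 9.20% of KO2, 20.2% of KO3 and 7.81% of KO4. WT1 stood far above all other mice, and KO3 lay within the WT range. Exact binomial 95% intervals ran from 46.8 to 52.1% in WT1 and from 6.42 to 9.38% in KO4, and they cover counting error only. The means were 29.2% ± 13.7 in WT and 13.2% ± 5.77 in CaMKK2 KO mice, which did not pass the threshold (two-sided exact permutation test, p = 0.0571, where 4 against 4 mice cannot go below 0.0286). Without WT1 the difference went from -16.0 to -9.30 percentage points (exact permutation test, p = 0.114). Cells with 20 or more gate UMIs made up 4.09% ± 2.55 of WT and 2.35% ± 0.733 of CaMKK2 KO cells (exact permutation test, p = 0.343). Since the gate reads 4 transcripts, fewer such cells and less of those transcripts per cell cannot be told apart.

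Camkk2 itself (chr5:122731170-122779409, GRCm38) was read first as a check of the genotype labels. It stood at 26.4, 32.0, 30.9 and 28.1 CPM in WT1 to WT4 and at 13.1, 16.1, 14.8 and 18.98 CPM in KO1 to KO4. All CaMKK2 KO mice lay below all WT mice, although a mean of 15.7 CPM remained. Which part of the transcript the deletion removes is not given in the sources used here. The log2 fold change was -0.93 ± 0.13 (SE; edgeR quasi-likelihood test, adjusted p = 0.00598). The call was lost in 4 of 21 alternatives, with a log2 fold change of -0.82 and an adjusted p of 0.476 (edgeR) after the level of lymphocyte-gated cells had been subtracted. In lymphocyte-gated cells Camkk2 was at 14.6 ± 5.93 and 7.41 ± 3.91 CPM, and the genotypes overlapped there. Of the 10 genes of calmodulin kinases and AMPK that were tested, Camkk2 was the only one that changed, against 1.24% of all genes tested that were lower, and the median log2 fold change of the list was -0.23.

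Across the gated cells, 208 of 9821 genes tested changed at an adjusted p under 0.05 (edgeR quasi-likelihood test with Benjamini-Hochberg adjustment), which is 2.12% of the genes tested. Of these, 86 were higher in CaMKK2 KO mice (0.876%) and 122 were lower (1.24%), and the median log2 fold change of all genes tested was -0.08. With TMM scaling in place of total counts, 116 were higher and 85 lower. The mice of the genotypes did not overlap for 206 of the 208, against 12.4% of all genes tested. The calls were made on the same sums per mouse, so this count largely follows from them and is no separate evidence. The CaMKK2 KO mice lay above all WT mice for 3.48% of the genes tested and below them for 8.9%. The count was 99 of 7936 genes (1.25%) in cells with 10 or more gate UMIs, with 49 higher (0.617%) and 50 lower (0.63%). It was 51 after the level of lymphocyte-gated cells had been subtracted, and 43 without the 1125 WT and 616 CaMKK2 KO gated cells that held 3 or more UMIs of the monocyte and border macrophage genes Ccr2, Ly6c2 and Mrc1.

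The genes of MHC class II moved as a group. All 10 genes of the list were tested and all 10 were higher in CaMKK2 KO mice, against 0.876% of all genes tested, with a median log2 fold change of 2.26. The list holds the chains that bind peptide (H2-Aa, H2-Ab1, H2-Eb1), the invariant chain Cd74, the peptide editors H2-DMa, H2-DMb1, H2-DMb2, H2-Oa and H2-Ob, and Ciita, the transactivator of the other genes. The promoters of these genes are known for a shared module whose Y box holds CCAAT. To show it, the 250 bases before the start follow for the 3 members of lowest adjusted p that have a single RefSeq window (GRCm38.p6), with CCAAT on either strand in capitals.
H2-DMb1 (chr17:34152941-34153190, plus strand): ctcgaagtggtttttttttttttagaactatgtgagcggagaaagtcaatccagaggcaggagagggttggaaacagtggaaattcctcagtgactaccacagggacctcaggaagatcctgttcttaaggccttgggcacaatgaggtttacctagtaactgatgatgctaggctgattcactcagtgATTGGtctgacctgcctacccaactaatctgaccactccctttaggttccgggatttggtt
H2-Eb1 (chr17:34305617-34305866, plus strand): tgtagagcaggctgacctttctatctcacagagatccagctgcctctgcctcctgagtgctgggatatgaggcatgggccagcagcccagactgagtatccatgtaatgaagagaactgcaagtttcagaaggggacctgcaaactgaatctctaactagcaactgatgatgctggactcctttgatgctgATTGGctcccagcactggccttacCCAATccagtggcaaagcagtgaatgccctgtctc
H2-Aa (chr17:34287824-34288073, minus strand): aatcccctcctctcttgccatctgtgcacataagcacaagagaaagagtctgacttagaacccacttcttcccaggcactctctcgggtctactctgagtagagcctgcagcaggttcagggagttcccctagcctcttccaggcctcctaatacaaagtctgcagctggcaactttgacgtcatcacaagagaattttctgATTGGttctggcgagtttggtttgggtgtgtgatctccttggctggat

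The matches began 61 bases before the start in H2-DMb1, 59 and 35 in H2-Eb1 and 48 in H2-Aa. Of the 10 genes, 7 had a RefSeq window, which gave 8 windows since H2-DMa had 2, and 7 of the 8 held CCAAT, against 33.8% of all 32851 windows. The interferon-stimulated response element, searched on both strands, was in none of the 8 and in 2.98% of all windows. A match of letters is a description and not a measured binding site.

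H2-Ab1, the beta chain, stood at 483, 1833, 2314 and 1744 CPM in WT1 to WT4 and at 9517, 10215, 7515 and 10393 CPM in KO1 to KO4. Every CaMKK2 KO mouse was above every WT mouse, and WT1 was the lowest by far. The log2 fold change was 2.56 ± 0.39 (SE; edgeR, adjusted p = 0.0101). Cd74, the invariant chain, had 1577, 5332, 6811 and 5124 CPM in the WT and 20725, 22119, 17072 and 22912 CPM in the CaMKK2 KO mice, with a log2 fold change of 2.14 ± 0.36 (adjusted p = 0.0176), a call lost in 3 of 21 alternatives. Ciita rose from 22.9 ± 12.2 to 178 ± 47.4 CPM. H2-DMb1 had the lowest adjusted p of the list, 0.00106, with 222 ± 59.7 CPM in WT mice and 798 ± 101 CPM in mice of the CaMKK2 KO group. H2-DMa rose from 344 ± 59.5 to 811 ± 91.4 CPM, and H2-Aa and H2-Eb1 from 1537 ± 761 and 1350 ± 663 to 7990 ± 721 and 8245 ± 736 CPM. The smallest rise was that of H2-DMb2, from 18.2 to 36.9 CPM.

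The list summed to 3354 CPM in WT1, against 10731 to 14058 CPM in the other WT mice and 40419 to 52449 CPM in the CaMKK2 KO mice. In cells with 10 or more gate UMIs, 9 of the 10 were higher, against 0.617% of all genes tested in those cells. In cells with 20 or more, the summed level was 5503 CPM in WT mice and 34230 CPM in CaMKK2 KO mice. Lymphocyte-gated cells, which include B cells, held 614 ± 293 CPM of H2-Aa in WT and 640 ± 471 CPM in the CaMKK2 KO mice (edgeR, adjusted p = 0.984). Without WT4 or without KO4 the count of MHC class II genes that changed was 6. It was 2 of the 8 still tested once the lymphocyte level had been subtracted, where the log2 fold change of H2-Aa was 2.80 and its adjusted p 0.442 (edgeR). In WT1, H2-Aa was at 460 CPM in gated and 980 CPM in lymphocyte-gated cells, and H2-Ab1 and Cd74 were also lower in gated cells. The subtraction therefore left no counts of these genes in WT1.

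**Figure D2:**
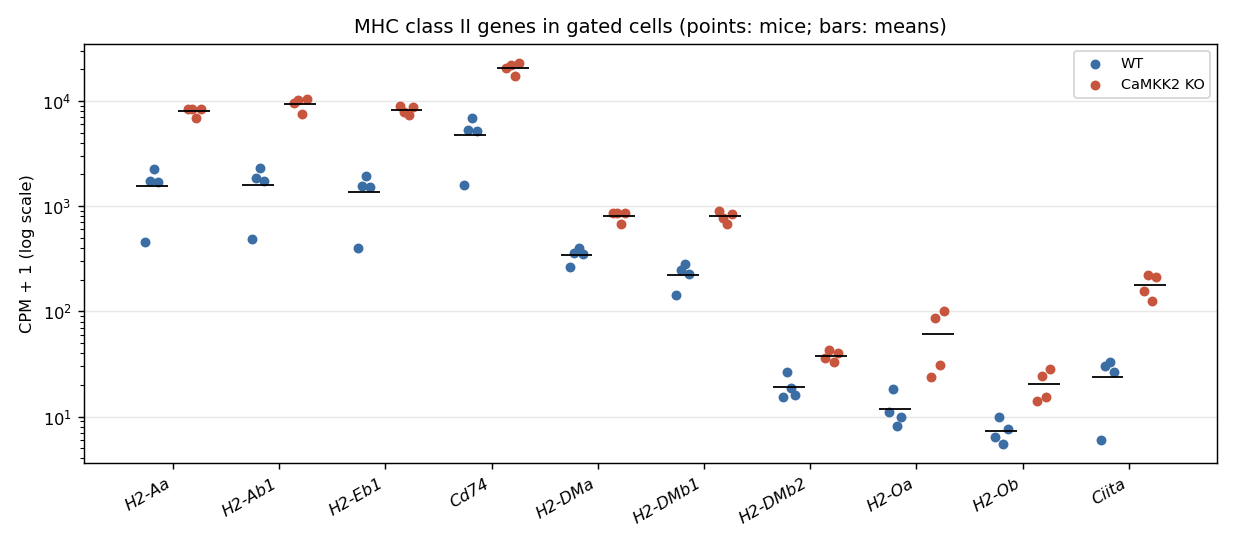
The 10 MHC class II genes in gated cells, as CPM + 1 on a log scale, with a point for each mouse and bars for the means of 4 mice. All 4 CaMKK2 KO mice lie above all 4 WT mice in each gene, and WT1 is the lowest WT mouse in most.

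Few genes of MHC class I and of the responses to interferon passed the test. All 17 class I and peptide loading genes had a positive log2 fold change, with a median of 0.65, and 2 passed the test, against 0.876% of all genes tested that were higher. For 10 of the 17 all CaMKK2 KO mice lay above all WT mice, against 3.48% of all genes tested. Summed, the 17 stood at 7909 to 14014 CPM in WT mice and 15581 to 20972 CPM in CaMKK2 KO mice. The immunoproteasome subunit Psmb9 rose from 183 ± 45.0 to 364 ± 80.5 CPM (log2 fold change 0.99 ± 0.21, edgeR, adjusted p = 0.0443). The nonclassical H2-Q4, whose reads may be shared with its close paralogs, rose from 66.3 ± 16.5 to 124 ± 21.8 CPM (adjusted p = 0.0486). Each of the 2 lost its call in 11 of 20 alternatives, with no change of direction. Of 19 type I interferon genes tested, Ifi44 alone changed, against 2.12% of all genes tested, and the median of the list was 0.23. None of 18 genes of the interferon gamma response passed, although 16 were positive and their median was 0.92. Cxcl9, a ligand of CXCR3 on T cells, was at 271 ± 266 CPM in WT mice and 1051 ± 509 CPM in CaMKK2 KO mice (edgeR, adjusted p = 0.231). WT1 held 17.3 CPM of Cxcl9 and WT3 628 CPM, above the 462 CPM of KO3, so the genotypes overlapped.

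Ifi44 and some related genes had large differences between the genotypes. Whether these go with the mouse line rather than with the loss of CaMKK2 was not tested. Ifi44, a cytoplasmic protein induced by interferon, stood at 5.49, 24.3, 23.1 and 14.5 CPM in the WT and at 305, 376, 201 and 380 CPM in the CaMKK2 KO mice (log2 fold change 4.25 ± 0.43, edgeR, adjusted p = 0.000739). Its neighbour Ifi44l (chr3:151758737-151762892, GRCm38) had no UMI in any WT mouse and 136, 167, 96.4 and 189 CPM in KO1 to KO4. The DNA-binding family member Ifi202b (chr1:173962568-173982744) also had no UMI in any WT mouse, and 268, 308, 188 and 270 CPM in KO1 to KO4. Against 3 counts over the 36912049 WT UMIs, Ifi202b was at least 3182-fold and Ifi44l at least 1809-fold higher. The related Ifi213 went the other way, from 62.5 ± 25.8 to 1.39 ± 0.764 CPM, and Ifi206 from 66.4 ± 32.4 to 9.32 ± 3.75 CPM, a call lost in 7 of 21 alternatives. In lymphocyte-gated cells Ifi202b was at 0 and 13.9 CPM for WT and CaMKK2 KO, and Ifi213 at 42.5 and 5.22 CPM.

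Other genes were among the 10 largest falls of genes at 20 CPM or more. Spint1, a serine protease inhibitor, stood at 136, 194, 174 and 123 CPM in the WT mice and at 0, 0, 0.126 and 0.612 CPM in the CaMKK2 KO mice. Macrophage-gated cells showed the same with 190 and 0.101 CPM. Eps8, an actin-capping adaptor of growth factor receptors, fell from 77.4 ± 12.3 to 9.70 ± 2.35 CPM, the predicted gene Gm34084 from 33.3 to 0.411 CPM, the zinc finger gene Zfp984 from 20.4 to 0.787 CPM and the secretory kinase Fam20c, whose call was lost in 2 of 20 alternatives, from 26.3 to 3.30 CPM. Gm21860, annotated on the Y chromosome although the mice are female, is uncertain since its reads may be shared with close copies, and fell from 51.3 to 7.28 CPM, a call lost in 6 of 21 alternatives. The matrix protein Thbs1 was not among these 10 and was named as a tumor macrophage marker. Its level fell from 265 ± 60.7 to 55.0 ± 9.99 CPM (log2 fold change -2.26 ± 0.18, edgeR, adjusted p = 0.000228).

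Among the rises, the predicted gene Gm8797 went from 6.53 ± 1.14 to 172 ± 26.1 CPM and Eif3j2, a copy of the initiation factor subunit Eif3j1, from 1.87 ± 0.696 to 47.7 ± 3.21 CPM. Eif3j1 itself fell from 92.0 to 17.3 CPM, and near-identical copies can share reads, so these values are uncertain. The levels in lymphocyte-gated cells were 7.80 and 186 CPM for Gm8797 and 2.84 and 37.6 CPM for Eif3j2. The uridine phosphorylase Upp1 rose from 3.46 to 46.5 CPM, a call lost in 11 of 18 alternatives, and the predicted gene Gm4841 from 1.33 to 44.9 CPM.

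Apoe carries cholesterol and other lipids and is the leading gene of DAM. By mean level over the 8 mice it ranked second, apart from mt- and ribosomal protein genes. That rank pools the genotypes, since Apoe lay above Tmsb4x in the WT mean and far below it in the CaMKK2 KO mean. Apoe stood at 35120, 22980, 24017 and 27168 CPM in WT1 to WT4 and at 2846, 1476, 3842 and 1873 CPM in KO1 to KO4. Every WT mouse was above every CaMKK2 KO mouse, and WT1 was the highest. The log2 fold change was -3.44 ± 0.30 (SE; edgeR, adjusted p = 0.000357). In cells with 20 or more gate UMIs Apoe was at 20021 and 3071 CPM. Lymphocytes do not make it in quantity, yet lymphocyte-gated cells had 485 CPM in WT mice and 81.3 CPM in CaMKK2 KO mice, and whether free RNA or doublets brought it there was not tested. With the lymphocyte level subtracted, the log2 fold change in gated cells was -3.47 (edgeR, adjusted p = 0.00682). Apoe passed in each of the 21 alternatives reported.

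The list of 11 DAM genes is the one the study used on these cells, credited there to an earlier description of the state. Apoe, Cd63 and Ctsb were lower, against 1.24% of all genes tested, none was higher and 8 did not pass, with a median log2 fold change of -0.18. Cd63, a tetraspanin of late endosomes, fell from 810 ± 156 to 354 ± 69.0 CPM (log2 fold change -1.19 ± 0.17, edgeR, adjusted p = 0.00627). Ctsb, a lysosomal cysteine protease, fell from 2567 ± 86.8 to 1913 ± 92.1 CPM (-0.42 ± 0.07, adjusted p = 0.0200), a call lost in 11 of 21 alternatives, among them those with 10 or 20 gate UMIs. Spp1, the secreted osteopontin, was at 2048, 1778, 1275 and 649 CPM in the WT and 620, 396, 335 and 54.5 CPM in the CaMKK2 KO mice, with a log2 fold change of -2.02 ± 0.58 that did not pass (adjusted p = 0.106). It passed in cells with 10 or more gate UMIs (-3.16, adjusted p = 0.0391). Trem2, the lipid-sensing receptor of this state, stood at 708 ± 113 and 606 ± 52.6 CPM, and its adaptor Tyrobp at 2257 ± 65.0 and 2216 ± 84.4 CPM. Of 11 further DAM genes none changed, against 2.12% of all genes tested, and their median was -0.38.

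The homeostatic genes outside the gate mostly did not pass the test. Of 14 tested, 2 were lower in CaMKK2 KO mice, against 1.24% of all genes tested, none was higher and the median was 0.11. Fcrls, an Fc receptor-like surface protein used to mark microglia, stood at 339, 414, 216 and 264 CPM in the WT and at 18.2, 7.67, 20.3 and 7.35 CPM in the CaMKK2 KO mice. The genotypes did not overlap, and the log2 fold change was -4.41 ± 0.34 (edgeR, adjusted p = 0.000160). In cells with 20 or more gate UMIs Fcrls was at 740 and 23.6 CPM. Macrophage-gated cells showed a fall of Fcrls too, from 27.5 CPM in WT to 0.798 CPM in CaMKK2 KO mice, so it was not particular to gated cells. Slc2a5, the fructose transporter of microglia, was at 8.03, 24.6, 5.03 and 5.10 CPM and at 1.19, 0.256, 1.14 and 1.22 CPM (-3.45 ± 0.71, adjusted p = 0.0391), a call lost in 10 of 20 alternatives. In cells with 20 or more gate UMIs it was at 50.5 and 3.81 CPM.

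The other 12 members did not pass in either direction. The fractalkine receptor Cx3cr1 stood at 956 ± 113 and 823 ± 184 CPM. Sparc was at 296 ± 170 and 374 ± 195 CPM (log2 fold change 0.33 ± 0.40, edgeR, adjusted p = 0.691) and Gpr34 at 73.8 ± 25.6 and 94.8 ± 38.3 CPM. Olfml3 was at 257 ± 110 and 120 ± 86.4 CPM, a log2 difference that did not pass (adjusted p = 0.202). The gate genes, which had to be present, stood at 138 and 192 CPM for P2ry12, 293 and 311 CPM for Tmem119, 64.9 and 63.6 CPM for Crybb1, and 27.0 and 39.7 CPM for Sall1 in WT and CaMKK2 KO mice.

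**Figure D3:**
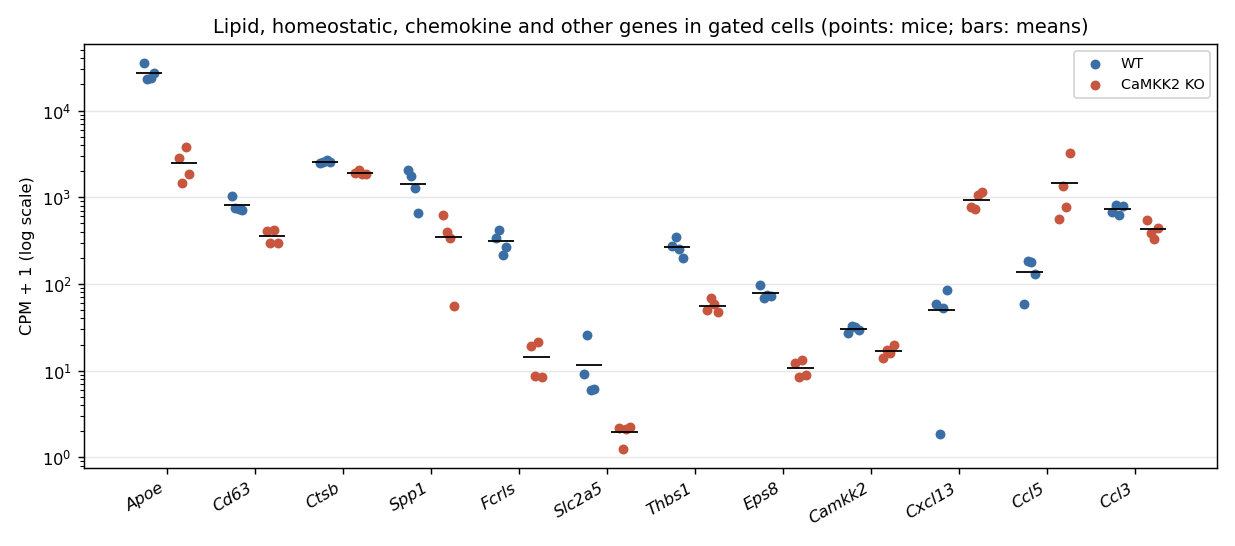
CPM + 1 (log scale) of 12 genes in gated cells, with a point for each mouse and bars for means of 4 mice. Apoe, Fcrls, Thbs1 and Eps8 leave a wide gap between WT and CaMKK2 KO mice, Ctsb and Ccl3 a narrow one, and the genotypes do not overlap in Spp1 although it did not pass the test.

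Among 14 cytokine and chemokine genes tested, 1 was higher and 1 lower, against 0.876% and 1.24% of all genes tested. Ccl5, which draws T cells and monocytes, was at 57.0, 185, 179 and 129 CPM in the WT and at 563, 1347, 766 and 3204 CPM in the CaMKK2 KO mice (log2 fold change 3.42 ± 0.58, edgeR, adjusted p = 0.0187). KO4 held the most, and no CaMKK2 KO mouse came near the WT range. The call was lost in 3 of 21 alternatives, among them the one without cells with Ccr2, Ly6c2 and Mrc1, where the log2 fold change of Ccl5 was 1.504 (edgeR, adjusted p = 0.231). Ccl3, an inflammatory chemokine, fell from 724 ± 95.7 to 428 ± 92.8 CPM (-0.76 ± 0.16, adjusted p = 0.0409), a call lost in 12 of 21 alternatives with log2 fold changes from -1.78 to -0.38. Cxcl13, the ligand of CXCR5 that draws B cells, was outside this list and among the largest rises, with 57.6, 0.882, 51.5 and 83.8 CPM in WT1 to WT4 and 780, 732, 1074 and 1138 CPM in KO1 to KO4 (4.26 ± 0.81, adjusted p = 0.0305), a call lost in 9 of 21 alternatives. In cells with 20 or more gate UMIs Cxcl13 was at 64.5 and 2130 CPM. Macrophage-gated cells had 1.15 and 206 CPM of it.

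For 9 of the 16 lists of functions, none of their 113 tested genes changed, against 2.12% of all genes tested, so that few calls would be due in a set of this size. In the complement and phagocytosis list (14 genes, median -0.04) C1qa stood at 6319 ± 411 and 5415 ± 797 CPM. The cell cycle list (14 genes) had 13 negative log2 fold changes and a median of -0.33, with the proliferation antigen Mki67 at 110 ± 11.5 and 79.3 ± 44.3 CPM (-0.43 ± 0.31, edgeR, adjusted p = 0.477). Cholesterol synthesis and uptake (12 genes) had a median of -0.22, and its transcription factor Srebf2 stood at 43.2 and 38.9 CPM. Cholesterol efflux (7 genes) had a median of 0.04, with the exporter Abca1 at 129 ± 57.8 and 101 ± 34.5 CPM. Hypoxia and glycolysis (12 genes) had a median of 0.38, led by Gapdh at 2397 and 2634 CPM. Immediate early and heat shock genes (14) had a median of -0.06 and Fos stood at 1917 and 1922 CPM. TGF-beta and CSF1 receptor signalling (11 genes) had the transcription factor Cebpb at 808 and 854 CPM.

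**Figure D4:**
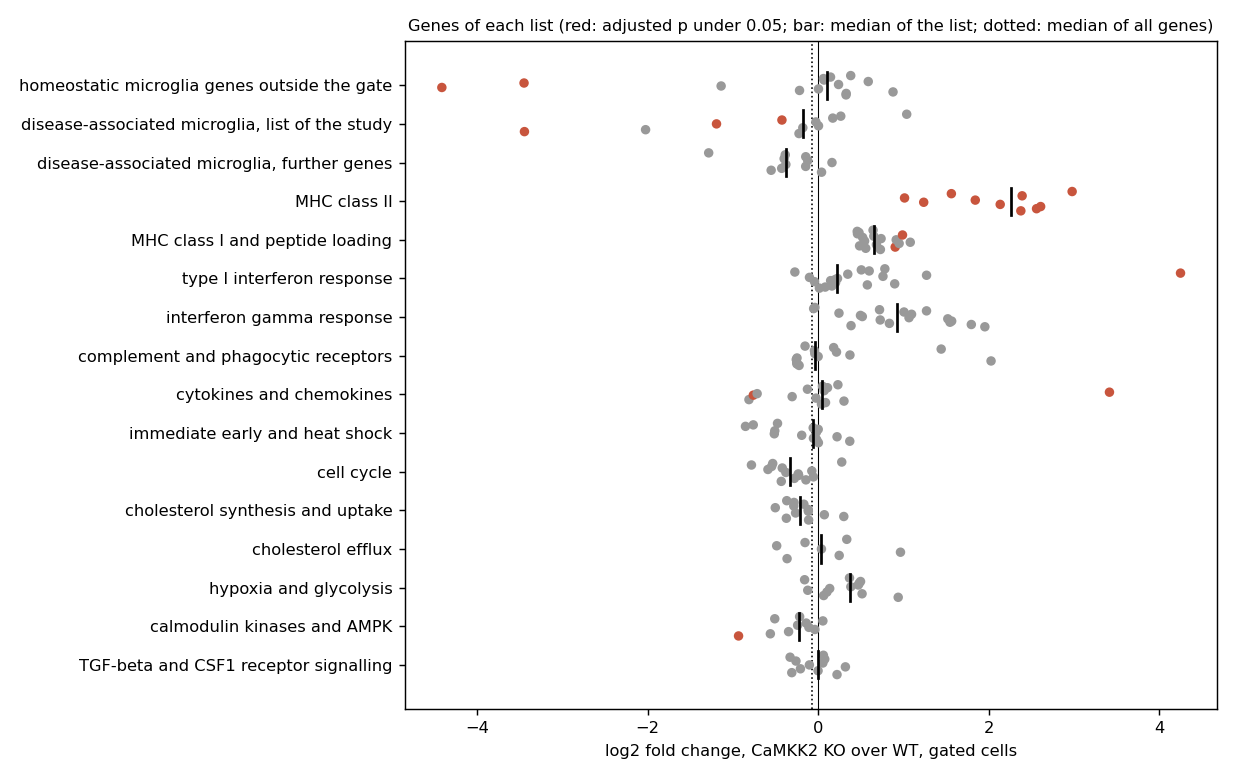
Log2 fold change (CaMKK2 KO over WT, gated cells) of every tested gene in 16 lists, with genes at an adjusted p under 0.05 in red, the median of each list as a bar and the median of all genes dotted. All 10 MHC class II genes are red and right of 0, while Fcrls, Slc2a5 and Apoe are the red points farthest to the left.

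Markers of other cells moved with the genotype in part. The 10 genes of infiltrating monocytes summed to 3633 to 5252 CPM in WT mice and 5189 to 7488 CPM in CaMKK2 KO mice. Their median log2 fold change was 0.28. None of the 10 changed, against 2.12% of all genes tested, so few calls would be due in a list of this size. For 4 of the 10 all CaMKK2 KO mice lay above all WT mice, against 3.48% of all genes tested. Tgfbi was the most abundant of the 10. Ccr2, the receptor that brings monocytes out of the blood, was at 91.4, 227, 229 and 192 CPM in the WT and 318, 370, 283 and 367 CPM in the CaMKK2 KO mice (0.85 ± 0.25, edgeR, adjusted p = 0.110). Ly6c2, a surface protein of classical monocytes, was at 241 ± 146 and 908 ± 671 CPM (1.91 ± 0.65, adjusted p = 0.163). WT1, the mouse with the lowest MHC class II, was also the lowest in Ccr2 and Ly6c2. In the cells with 20 or more gate UMIs, Ccr2 was at 50.1 and 151 CPM, Ly6c2 at 97.1 and 519 CPM, and MHC class II summed to 5503 and 34230 CPM. Without gated cells that held 3 or more UMIs of Ccr2, Ly6c2 and Mrc1, 7 of the 10 MHC class II genes were higher, and the log2 fold change of H2-Aa was 2.60 (edgeR, adjusted p = 0.00447).

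Of the 6 T and NK cell genes tested, the granzyme Gzma alone changed, from 24.3 ± 7.56 to 113 ± 78.0 CPM, against 0.876% of all genes tested that were higher. Its call was lost in 9 of 19 alternatives, and it was the most abundant gene of that list. The 11 genes summed to 59.8 to 97.3 CPM in the WT mice and to 120, 402, 488 and 128 CPM in KO1 to KO4. In lymphocyte-gated cells Gzma went from 58.3 to 721 CPM and Ccl5 from 1975 to 2255 CPM. Subtracting the lymphocyte level left Ccl5 counts in KO4 only. That was the only mouse whose gated cells held more Ccl5 than its lymphocyte-gated cells (3204 against 2681 CPM). The resulting log2 fold change of 12.8 rests on KO4 and did not pass (edgeR, adjusted p = 0.346). Gzma fell below the minimum for testing after the subtraction. The border macrophage genes summed to 1266 ± 168 and 800 ± 264 CPM, with 4 tested and a median of -0.99. None of these 4 changed, against 2.12% of all genes tested, so hardly any call would be due among so few. Mrc1 among them was at 128 ± 64.4 and 60.2 ± 41.4 CPM and Pf4 at 456 ± 205 and 219 ± 154 CPM.

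Of 6 tumor macrophage genes Thbs1 alone changed, against 1.24% of all genes tested that were lower. Of the 2 endothelial and red cell genes tested, Pecam1 alone changed, against 0.876% of all genes tested that were higher. Pecam1, which leukocytes also express, rose from 11.4 to 34.4 CPM, a call lost in 2 of 19 alternatives. None of the 3 B cell, 2 oligodendrocyte, 2 astrocyte and 2 neutrophil genes tested changed, against 2.12% of all genes tested. Hardly any call would be due among so few genes. Among the dendritic cell markers only Ccr7 could be tested. Ighm stood at 64.9 and 98.7 CPM, Mbp at 27.8 and 28.5 CPM, Aldoc at 15.99 and 29.3 CPM, Csf3r at 49.95 and 76.7 CPM and Ccr7 at 3.28 and 6.24 CPM. No neuronal gene reached the minimum, with Meg3 at 0.949 and 0.934 CPM. Ly6g, which defines neutrophils, had no UMI.

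The genotype effect was then compared with that of macrophage-gated cells of the same mice. With the gate at 3 UMIs, 0 of 8346 genes passed in the class by genotype term (edgeR, smallest adjusted p = 0.0772), and 804 had an unadjusted p under 0.05. With the bound of 10 gate UMIs, 28 of 7626 genes passed (0.367%). Of these, 22 had a more positive effect in the gated cells (0.288%) and 6 a more negative effect (0.0787%). The ones named here were picked once their values were known. H2-Aa went from 1012 to 6061 CPM in these cells and from 4588 to 8814 CPM in macrophage-gated cells, a log2 difference of the effects of 1.77 ± 0.32 (adjusted p = 0.034). H2-Ab1, H2-Eb1 and Cd74 passed in the same direction, by 1.65, 1.84 and 1.61. In WT mice macrophage-gated cells held several times more MHC class II RNA, and in CaMKK2 KO mice the classes were closer.

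Apoe fell in both classes, from 24070 to 2768 CPM at 10 or more gate UMIs and from 16534 to 819 CPM in macrophage-gated cells, and the fall was smaller in the former by 1.25 ± 0.23 on the log2 scale (edgeR, adjusted p = 0.034). The DAM genes Cst7 and Lpl were also among the 28. The cystatin Cst7 was at 62.1 and 150 CPM with 10 or more gate UMIs and at 13.3 and 10.2 CPM in macrophage-gated cells. Lymphocyte-gated cells held 153 to 269 CPM of Cst7 in WT mice and 109 to 215 CPM in CaMKK2 KO mice. The lipoprotein lipase Lpl was at 44.7 ± 17.6 and 135 ± 100 CPM, with 281 CPM in KO1 and 57.7 to 117 CPM in KO2 to KO4, against 34.8 ± 9.21 and 14.3 ± 6.39 CPM. Olfml3, of the homeostatic list, was at 476 and 277 CPM against 35.3 and 5.22 CPM. The lowest adjusted p of the term, 0.00122, was that of Plac8, of the monocyte list, which was at 129 ± 94.3 and 676 ± 231 CPM against 1713 ± 964 and 3228 ± 1200 CPM. Also in this direction were Gzmd, Gzmc, Gzmb and Klrd1, which cytotoxic lymphocytes express, with log2 differences of 6.56, 3.85, 2.78 and 1.80. Gzmd was at 0.957 ± 0.716 and 73.9 ± 145 CPM with 10 or more gate UMIs, and at 9.31 ± 9.51 and 3.38 ± 2.89 CPM in macrophage-gated cells. Gzmc was at 34.8 ± 47.9 and 129 ± 165 CPM against 134 ± 92.6 and 39.8 ± 49.7 CPM, and for both the SD in the CaMKK2 KO mice exceeded the mean. This term was not refitted without single mice. The part of lymphocyte RNA in this term was not tested. Among the 6 with a more negative effect were Ch25h, the cholesterol 25-hydroxylase, at 74.0 and 53.6 CPM against 13.1 and 25.6 CPM, and Sod2, the mitochondrial superoxide dismutase, at 111 and 160 CPM against 181 and 460 CPM. With 20 or more gate UMIs 9 genes passed.

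Against lymphocyte-gated cells, 25 of 7149 genes passed (0.35%), 8 with a more positive (0.112%) and 17 with a more negative effect (0.238%) in the gated cells. Ccl5 led the former with a log2 difference of 3.05 ± 0.50 (edgeR, adjusted p = 0.028), and H2-Oa followed with 2.43 ± 0.34. Ctsb, Zfp984, Ifi213 and Ifi206 were among the latter. Wls, a carrier of Wnt proteins picked once its values were known, rose less in gated cells, from 54.9 to 124 CPM, than in lymphocyte-gated cells, from 41.4 to 274 CPM. Of the 208 genes that changed in gated cells, 133 had enough UMIs in lymphocyte-gated cells for this term and 16 passed in it.

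**Figure D5:**
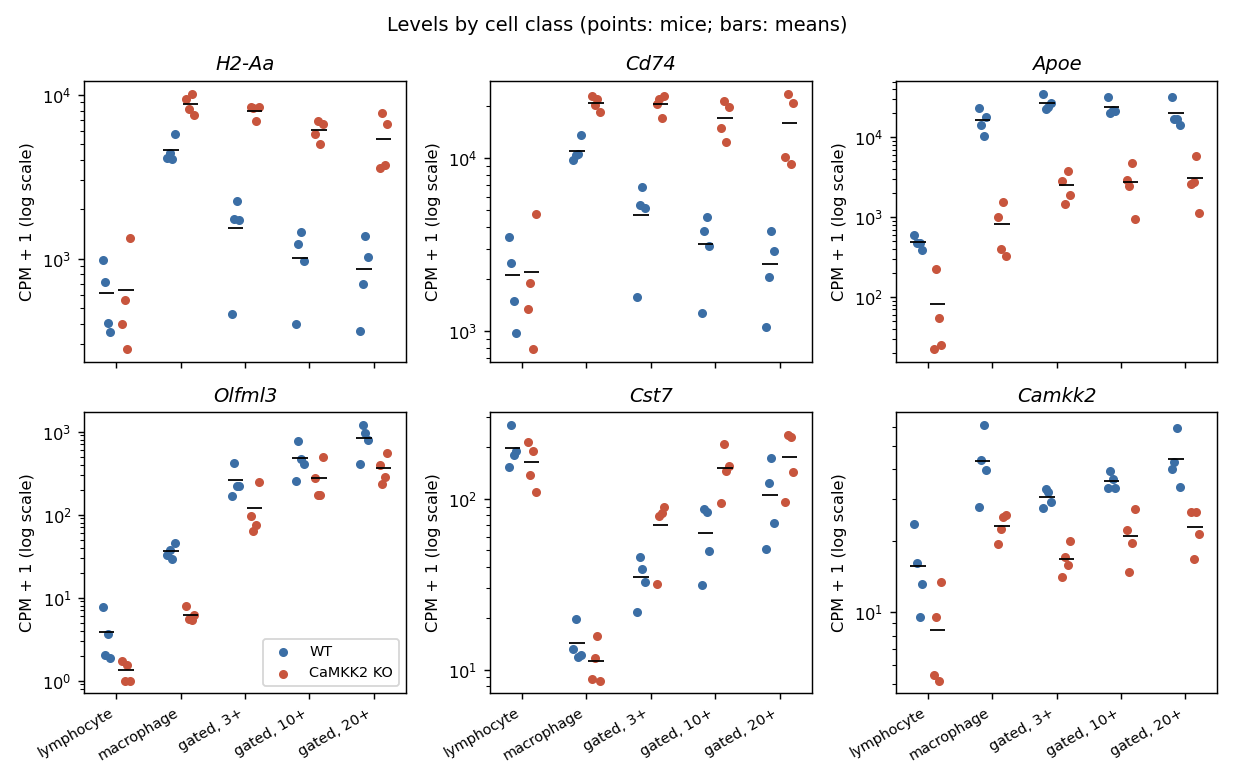
CPM + 1 (log scale) of 6 genes in lymphocyte-gated cells, macrophage-gated cells and gated cells with at least 3, 10 or 20 gate UMIs, by mouse, with bars for means of 4 mice. H2-Aa and Cd74 are higher in CaMKK2 KO than in WT mice in macrophage-gated cells and at 3, 10 and 20 gate UMIs, the genotypes overlap for both in lymphocyte-gated cells, and Apoe is lower in CaMKK2 KO mice in every class.

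To see whether the differences lay in many cells or in few, each gated cell was thinned to 3000 UMIs and the share with a UMI of a gene was taken per mouse. Apoe was found in 98.7% ± 0.925 of WT and 52.4% ± 11.9 of CaMKK2 KO gated cells, and in 71.6 and 8.51% of lymphocyte-gated cells, whose medians were 5410 to 9495 UMIs per mouse against 13102 to 20076 in gated cells. The lymphocyte-gated cells are set beside the gated cells for comparison, and B cells and T cells among them make H2-Aa and Ccl5 themselves. H2-Aa was found in 50.4% ± 13.2 of WT cells, from 32.1% in the lowest mouse, and in 95.3% ± 2.98 of CaMKK2 KO cells. Before thinning these shares were 75.9 and 98.5%. Cd74 was found in 74.7% ± 11.4 and 98.6% ± 1.82, and in 45.9 and 54.4% of lymphocyte-gated cells. In lymphocyte-gated cells the H2-Aa shares were 32.9% in WT and 40.2% in CaMKK2 KO mice. At most 2 gated cells of a mouse were too shallow to be thinned.

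Cxcl9 was found in 12.5% ± 9.47 of WT and 37.2% ± 12.1 of CaMKK2 KO cells, Ccl5 in 16.1% ± 4.85 and 48.6% ± 11.3, and Spp1 in 39.6% ± 7.83 and 17.0% ± 6.39. In lymphocyte-gated cells the shares were 1.01 and 5.54% for Cxcl9 and 8.48 and 4.92% for Spp1. For Ccl5 the lymphocyte shares of 53.8 and 52.8% were above those of the gated cells. Ccr2 was found in 28.3% ± 7.56 and 42.4% ± 5.15 and Ly6c2 in 18.6% ± 8.84 and 43.1% ± 10.9. The lymphocyte shares were 10.6 and 25.0% for Ccr2, which went the same way, and 34.5 and 34.8% for Ly6c2, above the share in WT gated cells. In these 8 genes and in H2-Ab1, 9 in all, the genotypes did not overlap, which gives the smallest p that 4 against 4 mice allow (two-sided exact permutation test, p = 0.0286). Adjusted over the 19 genes examined it was 0.0603, so none passed. The shares of Ccl12, 50.8 and 50.4%, and Top2a, 8.47 and 8.15%, differed by less than the spread between mice. Those of Lpl, 7.16% ± 0.0947 and 6.51% ± 2.94, differed by more than the WT spread and less than the CaMKK2 KO spread. Without KO1 the Lpl difference was -2.06 points (exact permutation test, p = 0.0571, the smallest that 3 against 4 mice allow).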

How the data were processed

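The authors made UMI counts per gene and barcode with Cell Ranger 4.0.0 (STAR 2.7.5c; bcl2fastq 2.20) on mm10 and deposited the raw counts of 2 gene and 2 hashtag libraries, unnormalized. Each barcode was given to the mouse whose hashtag had the most UMIs. Counts of gated cells were summed per mouse (1633316 to 14571536 UMIs) and tested with edgeR 4.0.16 (quasi-likelihood, total counts as library sizes, at least 200 UMIs over 8 mice, Benjamini-Hochberg, adjusted p under 0.05), in R 4.3.3. The class by genotype terms had a term per mouse. Single values were tested with scipy 1.17.1. The study compared cells with MAST, and sums per mouse were used here because cells are not replicates. Data were also simulated with independent counts and the same dispersion of 0.05 for every gene and mouse. On 9821 such genes, the genotype test recovered 68% of 2-fold and 93% of 4-fold changes, and 3.59% of its calls were false. On 8346 genes, the term against macrophages recovered 21% and 96%. Genes such as Cxcl9 and Ly6c2 varied more than this between the real mice, so these rates do not carry over to them.

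Named genes were Camkk2, the 6 markers, up to 4 changed genes per list by adjusted p (otherwise the 2 most abundant), members needed to account for a list, the 10 largest rises and falls at 20 CPM or more without overlap, the 10 most abundant, the 10 of highest ratio to macrophage-gated cells, genes of the thinned shares and leading markers of other cells. The members and lists were chosen with earlier results of these data known. Alternatives used TMM, DESeq2 1.42.0, limma 3.58.1, Seurat 5.3.0 (HTODemux), other gates and filters, and left out each mouse. Where the lymphocyte level was subtracted, that of the same mouse was used, and negative results were counted as no UMI. Some genes and 1 alternative built on one of them, under which fewer genes changed, are not reported here. The same with its other 3 genes was added after seeing the data. Promoters came from RefSeq.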

Additional observations from a re-analysis of the deposited data

Results flagged for a closer look

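In 8 of 122 groups of 4 mice, the highest or lowest mouse lay far from the other 3, and chance alone gives about 1 in 20. These were WT1 for Cd63 (1042 CPM), KO3 for H2-Aa (6910 CPM), KO3 for H2-DMa (674 CPM), WT2 for Slc2a5 (24.6 CPM), KO2 for Slc2a5 (0.256 CPM) and KO4 for Zfp984 (0 CPM). After thinning, KO3 was apart for the share of gated cells with H2-Ab1 (90.3%) and WT1 for that with Ccl12 (42.2%).

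The genotype effect differed between gated and lymphocyte-gated cells for 25 genes by the test of the class by genotype term (edgeR, adjusted p under 0.05). Among named genes, the effect in gated cells was more positive by 3.05 for Ccl5 and 0.86 for C1qb on the log2 scale. It was more negative for Actb (-0.57), Ctsb (-0.65), Ifi206 (-1.77), Ifi213 (-2.39) and Zfp984 (-3.52).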

How the results depend on the processing

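Genotype and channel cannot be told apart, differences between mouse lines were not tested, mice were assigned by hashtag, and most gated cells have few gate UMIs. No paired analysis was possible because the hashtag numbers name different mice in each genotype. The 208 genes became 136 with a gate of 5 UMIs, 99 with 10, 137 in HTODemux singlets, 51 with the lymphocyte level subtracted, 43 without gated cells with 3 UMIs of Ccr2, Ly6c2 and Mrc1 (chosen after seeing the data), and 498 (315 higher, 183 lower) with DESeq2. Leaving out a mouse gave 95 (without WT4) to 266 (without KO3). Of the 33 changed named genes with alternatives, none turned direction in the alternatives reported, and 12 of the 26 still tested passed with the lymphocyte level subtracted and 20 of 30 without the cells with Ccr2, Ly6c2 and Mrc1.

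The term against macrophages (0 genes) gave 28 with a gate of 10, 9 with 20, 5 with the lymphocyte level subtracted and 0 to 2 without a mouse. The term against lymphocytes (25) gave 5 (without WT3) to 67 (without KO3). MHC class II genes higher (10) became 2 of 8 tested with the lymphocyte level subtracted (H2-Aa 2.80, H2-Ab1 2.93 and Cd74 2.58 on the log2 scale) and 6 to 10 without a mouse. Homeostatic genes lower (2) became 1 with a gate of 5, in HTODemux singlets, with the lymphocyte level subtracted, without the cells with Ccr2, Ly6c2 and Mrc1 and with mean CPM in limma, and 1 to 2 without a mouse. DAM genes lower (3) became 1 without the cells with Ccr2, Ly6c2 and Mrc1. Leaving out a mouse moved the difference in median UMIs from -1443 to 882 (without KO4) and in median genes from -314 to 18.2 (without KO4). For thinned shares it gave -2.06 to 0.223 points for Lpl, -1.15 to 5.57 for Ifit3, -3.33 to 1.43 for Ccl12 and -1.46 to 0.537 for Top2a. Thinning to 1500 UMIs gave 0.792 for Ccl12.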
